A study of Mus musculus with 21 samples.

Results

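The integrin and laminin genes of mouse mammary tumours driven by autotaxin or by a receptor for lysophosphatidic acid (LPA) were compared across the transgenes. They were chosen by symbol alone: every gene of the deposited value table whose annotated symbol begins with Itga, is one of the integrin beta genes Itgb1 to Itgb8, or is a laminin alpha, beta or gamma gene. This gave 34 of the 19087 genes of the table, 16 integrin alpha, 8 integrin beta and 10 laminin genes, read by 97 array features. Itga10 and Itgad were not analysed here. The mice carried MMTV-ATX (autotaxin, the secreted enzyme that makes LPA), MMTV-LPA1, MMTV-LPA2 or MMTV-LPA3 (the LPA receptors). The promoter of the mouse mammary tumour virus, MMTV, is active mainly in mammary epithelium, so the transgene itself is expected there and not in every cell of a tumour. Each transgene was represented by 1 tumour from each of 5 mice, 20 tumours in all, and the labels used here give no strain, age or founder line. No array held normal mammary gland, so the tumours were compared with each other. On each array tumour RNA labelled with Cy5 was hybridised with RNA of whole mice labelled with Cy3, and the dyes were not swapped. Every value is therefore a log2 ratio of tumour to whole-mouse reference, and 1 is a doubling if the log base is 2, which was taken from the range of the values. Every array has a median of 0, so a gene above 0 was higher against the reference than the median feature of its array, the sense in which above or below the reference is used here.

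Integrins are cell surface receptors of an alpha and a beta chain that bind matrix proteins or ligands on other cells and link them to the cytoskeleton. Laminins are trimers of an alpha, a beta and a gamma chain that form the sheet of the basement membrane. In the mammary gland the myoepithelial and luminal cells rest on a laminin-rich basement membrane, which they hold through laminin-binding integrins, among them the hemidesmosome integrin made by Itga6 and Itgb4. Leukocytes carry a set of their own, most of which share the beta chain of Itgb2. Since integrins work as dimers and laminins as trimers, partner chains are described together.

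Promoters of 4 members are printed, each from a partner pair whose ratios had a positive correlation above 0.5 in both slide sets, with the values and their limits given among the partner pairs. Lamc1, Itgb2, Itgb3, Lama5, Itgae and Itgb7 belong to such pairs as well and are not printed. Each runs 5′ to 3′ from 250 bases before to 50 bases after the start used by the RefSeq promoter table, on GRCm38.p6. That start is the gene start of the reference gene table in Itgam and Itgb5, and lies 147 bases after it in Lamb1 and 2094 bases after it in Itgav. Capitals mark the searched motif on either strand, GGGCGG (reverse CCGCCC), a core of GC boxes, in Lamb1, Itgav and Itgb5, and GAGGAA (reverse TTCCTC), a core that the myeloid factor PU.1 can bind, in Itgam. The windows are chr12:31265043-31265342, chr7:128062390-128062689, chr2:83724147-83724446 and chr16:33829415-33829714, all on the plus strand.
Lamb1: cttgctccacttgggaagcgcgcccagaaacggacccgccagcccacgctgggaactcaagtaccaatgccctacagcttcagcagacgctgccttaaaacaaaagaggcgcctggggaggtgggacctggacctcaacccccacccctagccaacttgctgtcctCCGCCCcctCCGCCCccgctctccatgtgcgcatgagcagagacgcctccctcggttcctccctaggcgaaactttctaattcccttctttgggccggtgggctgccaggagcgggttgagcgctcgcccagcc
Itgam: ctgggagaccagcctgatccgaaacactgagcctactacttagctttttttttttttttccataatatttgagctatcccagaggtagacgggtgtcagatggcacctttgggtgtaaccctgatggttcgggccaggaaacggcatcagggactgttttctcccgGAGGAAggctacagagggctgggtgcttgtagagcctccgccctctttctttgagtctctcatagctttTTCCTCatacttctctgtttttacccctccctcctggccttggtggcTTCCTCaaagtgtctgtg
Itgav: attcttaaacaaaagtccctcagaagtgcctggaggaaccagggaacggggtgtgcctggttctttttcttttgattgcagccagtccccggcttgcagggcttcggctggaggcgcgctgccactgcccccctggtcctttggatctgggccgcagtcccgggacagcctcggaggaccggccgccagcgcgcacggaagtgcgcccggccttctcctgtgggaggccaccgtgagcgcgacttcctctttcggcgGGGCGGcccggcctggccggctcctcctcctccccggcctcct
Itgb5: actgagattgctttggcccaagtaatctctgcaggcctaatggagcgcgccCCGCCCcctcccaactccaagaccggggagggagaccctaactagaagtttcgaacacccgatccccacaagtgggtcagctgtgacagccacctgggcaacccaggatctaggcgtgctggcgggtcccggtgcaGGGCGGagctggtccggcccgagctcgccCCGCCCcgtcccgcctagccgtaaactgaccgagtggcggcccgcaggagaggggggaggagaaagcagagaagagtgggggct
The Lamb1 window holds 2 GC box cores, both on the reverse strand, the nearest 75 bases before the start of the promoter table, which is after the gene start. That of Itgb5 holds 3 and that of Itgav 1, which lies after the promoter table's start. The Itgam window holds 3 copies of GAGGAA, of which 2 are on the reverse strand. Such letters are frequent: GGGCGG was in 35.7% of 32851 promoter windows of the reference table and in 12 of 25 windows of 22 members, and GAGGAA in 28.3% and in 14 of 25. A match describes the letters and is no evidence of binding, and the motifs do not overlap each other. The table held no promoter for the other 12 members, Lamc1 and Itgb2 among them.

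The arrays fell into 2 sets by slide. On slides 5 and 6 the SD of all log2 ratios of an array was 0.825 to 0.903, and on the other slides 1.195 to 1.432. Slides 5 and 6 held no ATX tumour, 3 each from LPA1 and LPA2 and 1 from LPA3, so results are also given from a fit that includes the slide set and from slides 1 to 4 alone. The mean of 7 luminal epithelial markers was above the reference in 19 of 20 tumours, and 6 of 7 markers were above 0 in over 10 tumours. The mean of 6 liver markers was below the reference in all 20. Of the 2036 values of member features, 64 were exactly 0, and 32 of those were on slides 5 and 6. The labels do not say what an exact 0 stands for. The tumour of LPA1 mouse 4 was hybridised a second time, and the 34 members then differed by a median of 0.342 between its arrays (r = 0.883 across genes, which are not independent). The largest shift was that of Lamc1, at −1.12 on the first array and 0.30 on the repeat, and the mean of both was used.

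Laminin chains of epithelia were above the whole-mouse reference in most tumours. Lamb3, the beta chain that epithelia place under hemidesmosomes, averaged 1.68 ± 0.71 in log2 ratio (mean ± SD, n = 20) and was above 0 in 19 tumours. Lama1, an alpha chain of embryonic and some glandular basement membranes, had 1.23 ± 1.25 and was above 0 in 17. Lama5, the alpha chain of most adult epithelial basement membranes, was above 0 in 18 tumours (0.61 ± 0.61) and Lama3, the alpha partner of Lamb3, in 19 (0.43 ± 0.46). The chains of mesenchymal, muscle and vascular basement membranes were mostly below it. Lama2, the alpha chain of muscle and nerve, was below 0 in 20 of 20 tumours (−1.52 ± 0.96) and Lama4, that of vessels, in 17 (−0.64 ± 0.61). Among the widely expressed chains Lamc1 had −0.93 ± 0.84, Lamb1 −0.49 ± 0.82 and Lamb2 −0.26 ± 0.54. Lamc3, a gamma chain with a narrower distribution, stayed between −0.14 and 0.51. No test was applied to the distance from the reference, and a dye bias of a probe would stay in it.

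Of the laminin-binding integrins, Itga6 and Itgb4, which form the hemidesmosome receptor, were above the reference in 19 and 17 tumours, with means of 1.04 ± 0.52 and 0.75 ± 0.73. Itga3, the other epithelial laminin receptor chain, had 0.49 ± 0.58, its partner Itgb1 −0.05 ± 0.50, and Itga7, the alpha chain of muscle, was below 0 in all 20 tumours (−0.47 ± 0.30). The collagen receptor chains had means of −0.17 ± 0.56 for Itga1, 0.10 ± 0.97 for Itga2 and −1.17 ± 1.06 for Itga11, a chain of fibroblasts, which was above 0 in 2 tumours only. Alpha chains that read the RGD sequence of fibronectin and related ligands had 0.65 ± 0.83 for Itga8, −0.10 ± 0.40 for Itgav, −0.12 ± 0.50 for the platelet chain Itga2b and −0.17 ± 0.79 for Itga5, the fibronectin receptor. Their beta partners had 0.50 ± 0.62 for Itgb5, 0.11 ± 0.71 for the epithelial Itgb6, 0.09 ± 0.54 for Itgb8 and −0.01 ± 0.57 for Itgb3. Itga9 and Itga4, which bind tenascin, osteopontin or vascular ligands, had −0.28 ± 0.54 and −0.47 ± 0.42. The 6 array features of Itga4 had means from −2.56 to 0.46 and a median correlation of 0.098, so the sign of its gene mean depends on the features. In bulk tissue, fewer cells of a type and less RNA per cell cannot be told apart.

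Integrins of leukocytes were mostly above the reference. Itgax, the alpha chain of dendritic cells and macrophages, and Itgal, that of lymphocytes, were above 0 in 20 of 20 tumours, at 1.61 ± 0.40 and 0.65 ± 0.52. Itgb2, their common beta chain, was above 0 in all 19 tumours with a value (1.12 ± 0.49, n = 19), since the value of LPA1 2 was missing. Itgam, the alpha chain of myeloid cells, was above 0 in 16 tumours (0.73 ± 0.77). Itgae, the alpha chain of lymphocytes and dendritic cells that sit in epithelia, was above it in 18 (0.67 ± 0.63), and its partner Itgb7 in 17 (1.10 ± 1.21). The mean of 5 general leukocyte markers was above 0 in 19 of 20 tumours, and 5 of 5 markers were above 0 in over 10 tumours. By transgene its mean, with lowest and highest tumour, was largest in LPA3 (1.108, 0.825 to 1.438), then LPA1 (0.901, −0.057 to 2.193), ATX (0.735, 0.386 to 1.637) and LPA2 (0.533, 0.078 to 1.506). Its part in the ratios of these integrins was not tested.

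**Figure D1:**
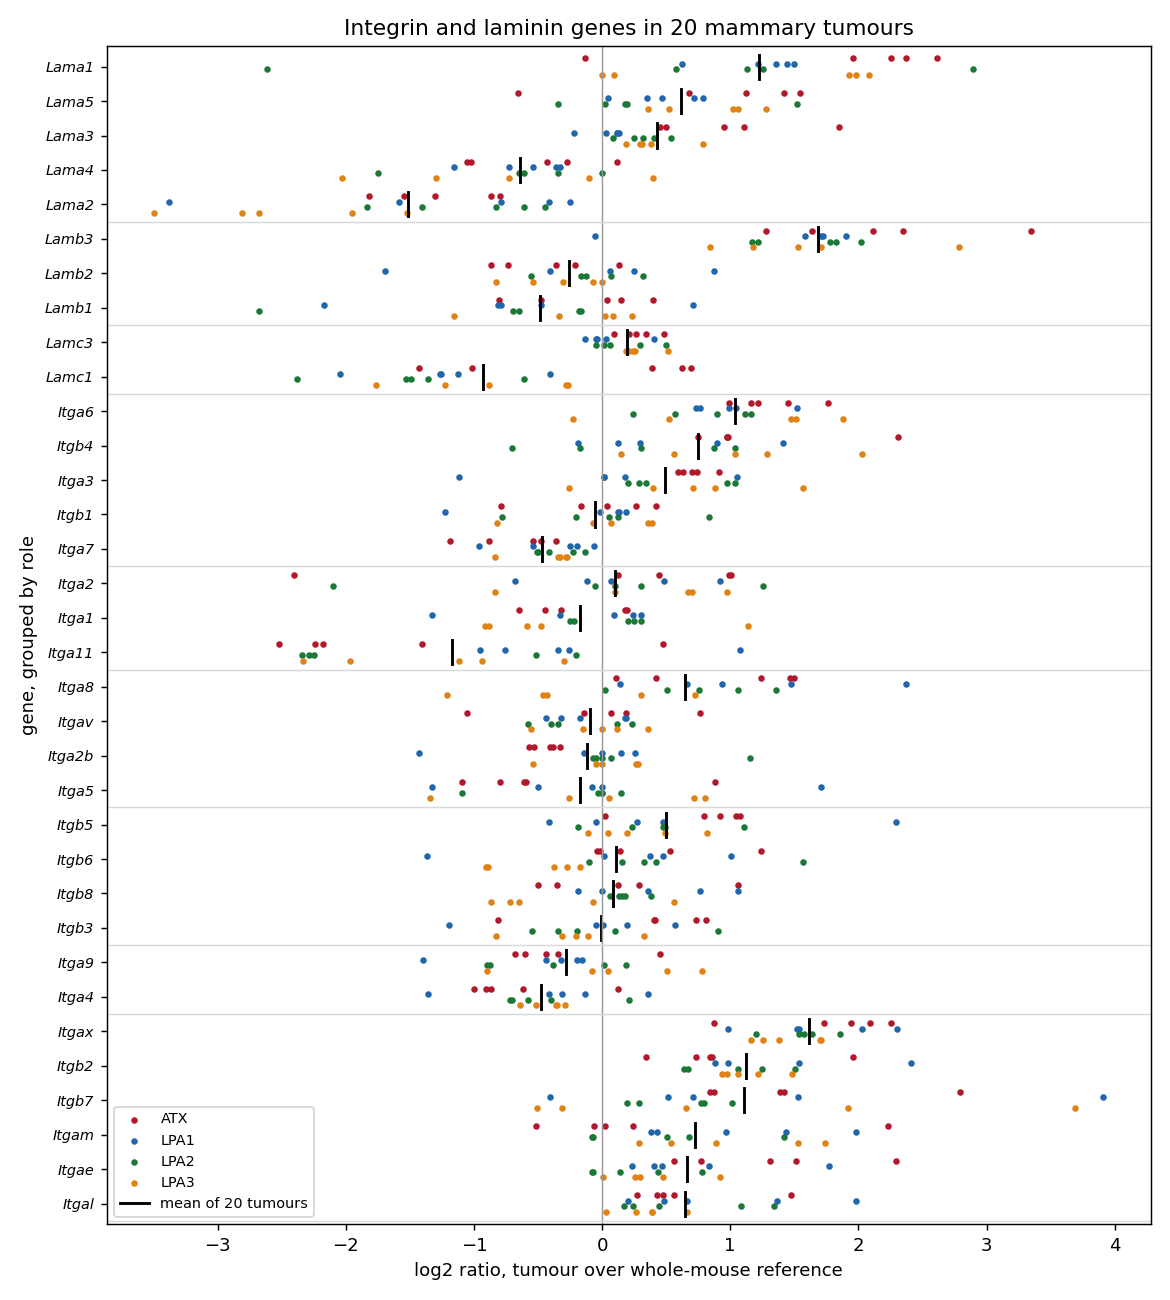
Log2 ratio of tumour to whole-mouse reference (horizontal axis) of the 34 integrin and laminin genes (vertical axis, grouped by role), with 1 point for each tumour coloured by transgene and a black bar at the mean of the 20 tumours. The colours overlap in nearly every gene. Lamb3 lies right of 0 in 19 tumours, and Lama2 and Itga7 lie left of 0 in all 20.

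The question of the comparison was whether tumours of the 4 transgenes differ in these genes. At a Benjamini-Hochberg adjusted p of 0.05 over all 19069 genes tested, limma's moderated F test called 0 of 34 members, against 0.0315% of all genes. At an unadjusted p under 0.05 there were 5 members, Lama3, Itgae, Itga8, Lama2 and Lamc1, against 10.9% of all genes. ATX tumours were then set against the mean of the receptor transgenes, against each receptor, and the receptors against each other. In all of these comparisons limma called 0 members. The share of all genes called was 0.0996% for ATX against the receptors, 0% for ATX against LPA1, 0.00524% against LPA2 and 0.0996% against LPA3. Between receptors it was 0% for LPA2 against LPA1, 0.00524% for LPA3 against LPA1 and 0% for LPA3 against LPA2. The comparisons with ATX share its 5 tumours and are not independent of each other. With the slide set in the fit 0 members were called again, against 0.0734% of all genes across transgenes, 0.142% for ATX against the receptors and 0.42% for ATX against LPA3.

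At an unadjusted p under 0.05 the members numbered 3 for ATX against the receptors (12.7% of all genes), 3 against LPA1 (8.99%), 5 against LPA2 (12.6%) and 5 against LPA3 (11.5%). They numbered 1 for LPA2 against LPA1 (3.66%), 3 for LPA3 against LPA1 (9.2%) and 3 for LPA3 against LPA2 (9.32%). Out of 34 members, these counts lie near the share of all genes. Apart from Lama3 when ATX 1 was left out, members were called only when each tumour was given the array weight that limma estimates for it, a setting with many more calls among all genes. It called Lama3, Lamc1, Lama2, Itgae and Lama5 across transgenes (17.6% of all genes) and Lamc1, Lama3, Itgae and Itga7 in ATX against the receptors (13.2%). Against single receptors it called Lama3 and Lamc1 for LPA1 (9.04%), these with Itgae, Itgb4 and Lama5 for LPA2 (13.4%), and Itgae for LPA3 (5.4%). Lama2 was called in LPA3 against LPA1 (4.34%) and against LPA2 (5.61%). Against the receptors 22 members were higher and 12 lower in ATX, with a median difference of 0.184, while the median of all genes was −0.041. The 95% interval of that difference reached a median of 0.618 to either side of the estimate, from 0.283 for Lamc3 to 1.285 for Lama1.

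By role, all 5 laminin alpha chains had higher means in ATX than in the receptor tumours (median difference 0.333), as did both gamma chains measured (0.581) and 2 of 3 beta chains, none of them called. The 4 beta chains of RGD receptors were also higher (0.358), and they were lower in LPA3 than in LPA1 and LPA2 (−0.425 and −0.369). The median of all genes was −0.044 and −0.057 in these comparisons of LPA3. It was −0.041 in ATX against the receptors and 0.013 in LPA2 against LPA1. Of 5 laminin-binding integrin chains 4 were higher in ATX (0.295), and of 3 collagen receptor chains none was (−0.086). The 6 leukocyte chains divided evenly, and all 6 were lower in LPA2 and in LPA3 than in LPA1 (−0.467 and −0.276). These counts come from the fit without the slide set. On slides 1 to 4 alone LPA3 minus LPA1 was 0.13 for Itgb3, against −0.65, −0.235 and −0.63 for Itgb5, Itgb6 and Itgb8. ATX minus the receptors there was 0.46, 0.05, 0.25 and 0.03 in that order. It was 0.06 for Itga3, 0.05 for Itgb4, 0.002 for Itga1 and 0.007 for Itga2, and −0.70 for Itga11. Laminin alpha chains had 0.04 (Lama5) to 1.01 (Lama2), and the leukocyte chains stayed lower in LPA2 and LPA3 than in LPA1, which had 2 tumours there. On slides 5 and 6 Itgax in LPA2 exceeded LPA1 by 0.08, and Itgb7 in the single LPA3 tumour by 1.01. The other differences of leukocyte chains from LPA1 were below 0 on those slides. Each of these counts is a description, and none of the genes behind them passed the test.

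**Figure D2:**
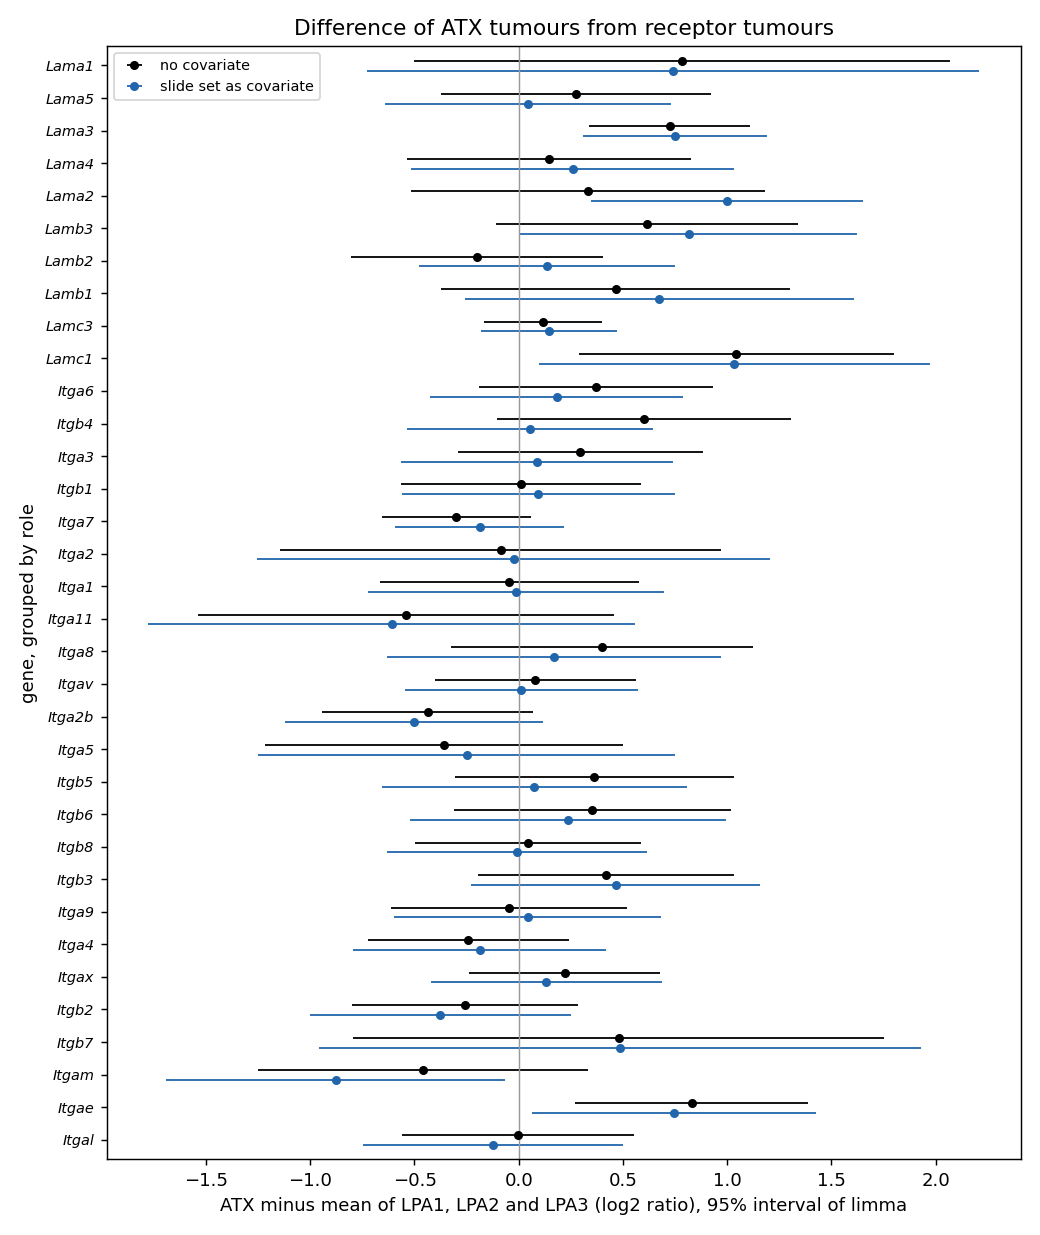
Mean log2 ratio of ATX tumours minus that of the 3 receptor transgenes (horizontal axis) for each member (vertical axis, grouped by role), with limma's 95% intervals before adjustment, without a covariate in black and with the slide set as a covariate in blue. Lama3 and Lamc1 lie right of 0 in both fits, and Lama2 shifts from 0.33 to 1.00 and Itgb4 from 0.60 to 0.05 with the slide set.

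Lama3, the laminin alpha chain of epithelial hemidesmosomes (chr18:12333417-12583013 on GRCm38), had the smallest p of the members. The ATX tumours had 0.45, 1.11, 0.50, 0.95 and 1.85, and the LPA1 tumours 0.03, 0.14, −0.22, 0.12 and 0.11. LPA2 tumours had 0.40, 0.25, 0.09, 0.32 and 0.54, and LPA3 tumours 0.78, 0.38, 0.30, 0.19 and 0.31. All ATX tumours lay above all LPA1 tumours, a separation seen in 1.23% of all genes, and all LPA1 tumours lay below all LPA3 tumours (1.18% of genes). The order of LPA1 and LPA3 was not shared by the 2 features of the gene. LPA1 and LPA3 averaged −0.17 and 0.65 in the first feature, and 0.24 and 0.13 in the second. ATX 1 and ATX 3 overlapped with the highest LPA2 and LPA3 tumours. ATX was higher than the receptors by 0.72 (SE 0.185, adjusted p = 0.14) and than LPA1 by 0.94 (adjusted p = 0.317), with an adjusted p of 0.377 across transgenes. Including the slide set gave 0.75 for the first of these, at an adjusted p of 0.192. Slides 1 to 4 alone gave 0.77, at 0.601. Without ATX 1 it was 0.85 and Lama3 was called (adjusted p = 0.0489), where 0.608% of all genes were. Basal and myoepithelial cells make this chain, and 2 of 9 of their markers were above 0 in over 10 tumours. Their list had its highest mean, with lowest and highest tumour, in ATX (0.109, −0.241 to 0.395), then LPA2 (−0.142, −1.138 to 0.358), LPA1 (−0.699, −2.255 to −0.008) and LPA3 (−1.574, −2.188 to −0.39). Its part in Lama3 was not tested.

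Lamc1, the gamma chain of most laminins (chr1:153218922-153332786), had the largest difference of ATX from the receptors. The 5 ATX tumours had −1.43, 0.39, 0.62, 0.69 and −1.01, and the LPA1 tumours −1.12, −1.27, −2.05, −0.41 and −1.26. In LPA2 tumours it had −1.53, −1.49, −2.38, −0.61 and −1.36, and in LPA3 tumours −0.88, −1.76, −0.28, −0.26 and −1.22. ATX 2, 3 and 4 were the 3 highest of the 20 tumours and the only ones above 0, while ATX 1 and ATX 5 lay among the receptor tumours. This holds for the mean of the 2 arrays of LPA1 4. Its repeat array, used in the fits with slides, had 0.30, and the arrays differed by 1.415. The difference of ATX from the receptors, 1.05 (SE 0.361), had an adjusted p of 0.25, and of 0.501 with the slide set, where it was 1.03. Slides 1 to 4 alone gave 0.99, at an adjusted p of 0.812 by limma.

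Lama2, the muscle and nerve chain (chr10:26981285-27617191), was lowest in LPA3 tumours. Its 12 features gave ratios of −0.80, −0.87, −1.31, −1.54 and −1.82 in ATX and −0.79, −0.25, −3.38, −1.59 and −0.41 in LPA1. LPA2 tumours had −0.45, −0.61, −1.41, −1.84 and −0.83, and LPA3 tumours −2.68, −2.81, −1.95, −1.52 and −3.49. The LPA3 tumours overlapped with ATX 4, ATX 5, LPA1 3, LPA1 4 and LPA2 4. LPA3 minus LPA2 was −1.47 (SE 0.496, adjusted p = 0.494), −0.90 with the slide set and −1.11 on slides 1 to 4. ATX minus LPA3 was 1.22 (adjusted p = 0.364), and including the slide set gave 1.51, at an adjusted p of 0.0629. Lama2 was 1 of 2 members that differed between the slide sets beside the transgene, higher by 1.43 on slides 5 and 6 (SE 0.3, adjusted p = 0.00487), where 8.72% of all genes differed. The mean of 7 skeletal muscle markers was also higher there, at −0.042 (range −1.176 to 1.154) on slides 5 and 6. On slides 1 to 4 it was −3.088 (−3.977 to −0.213), and 0 of 7 markers were above 0 in over 10 tumours. Their part in Lama2 was not tested.

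The other laminin chains given here in every tumour are Lama5 and Lamb2. Lama5 ratios were −0.66, 1.12, 1.54, 1.42 and 0.68 in ATX and 0.47, 0.05, 0.72, 0.79 and 0.35 in LPA1. They were 0.02, −0.34, 0.18, 1.52 and 0.19 in LPA2 and 1.02, 0.36, 1.06, 0.52 and 1.28 in LPA3. ATX 1 and LPA2 2 were the only tumours below 0, the groups overlapped, and LPA2 4 stood apart from the other LPA2 tumours. LPA3 exceeded LPA2 by 0.53 (SE 0.38, adjusted p = 0.641). Lamb2, a beta chain of vessels and neuromuscular junctions, had −0.87, −0.21, 0.14, −0.36 and −0.73 in ATX and 0.87, −0.41, −1.70, 0.06 and 0.25 in LPA1. LPA2 tumours had −0.17, −0.12, −0.55, 0.32 and 0.07, and LPA3 tumours −0.31, −0.83, −0.54, 0.00 and −0.07. LPA1 held both the highest and the lowest of the 20 tumours, and the ATX tumours spread across the range of LPA3. ATX minus LPA2 was −0.32 (SE 0.354, adjusted p = 0.749). For Lama1, Lama4, Lamb1, Lamb3 and Lamc3 the differences of ATX from the receptors ran from 0.12 (Lamc3) to 0.78 (Lama1), with adjusted p-values of 0.478 (Lamb3) to 0.895 (Lama4).

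**Figure D3:**
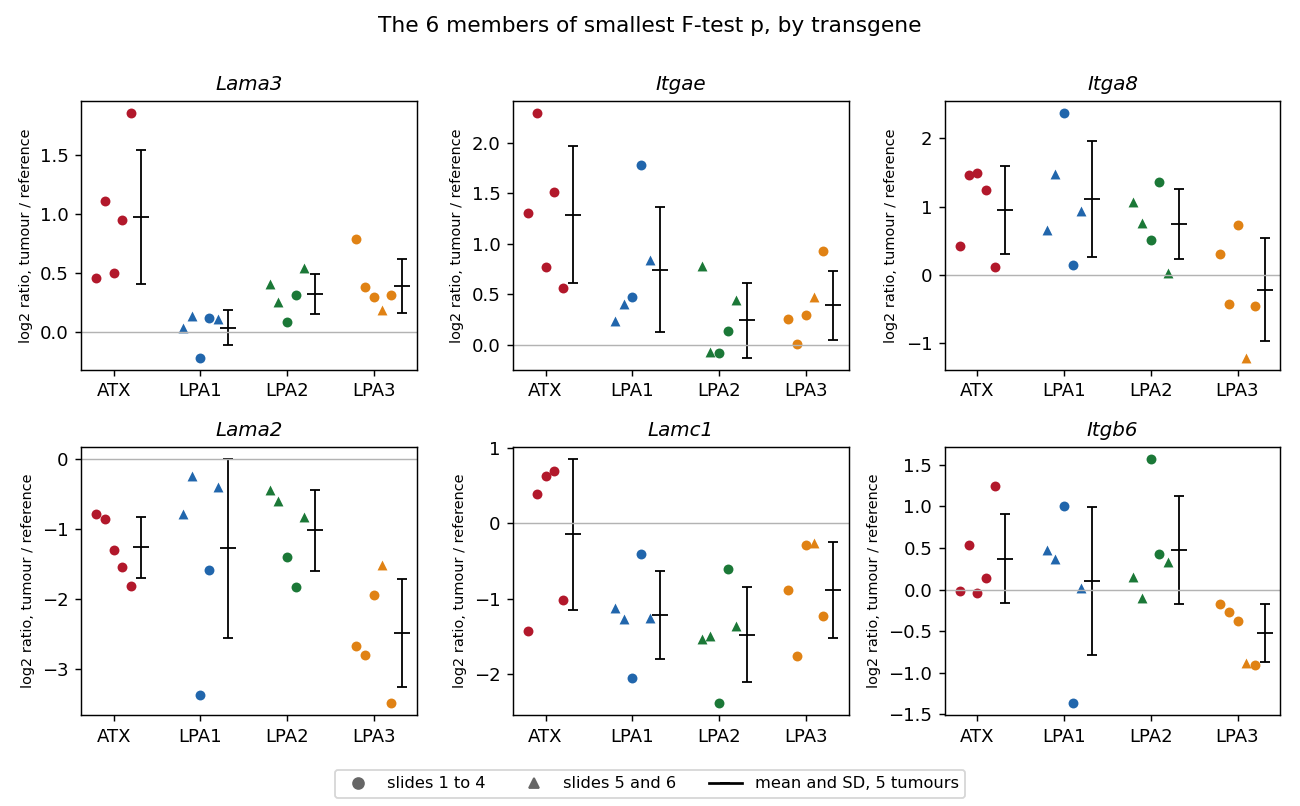
Log2 ratio of tumour to reference (vertical axis) of the 6 members of smallest F-test p in each tumour, by transgene, with circles for slides 1 to 4, triangles for slides 5 and 6, and bars for mean and SD of 5 tumours (LPA1 4, the mean of 2 arrays, is drawn as a circle). ATX tumours hold the 3 highest ratios of Lama3 and of Lamc1, all LPA3 tumours are below 0 for Itgb6, and the triangles lie high for Lama2.

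Among the laminin-binding integrins, Itgb4 (chr11:115974725-116008412), the beta chain of hemidesmosomes, followed the slide sets. ATX tumours had 0.97, 0.97, 0.75, 0.98 and 2.31 and LPA1 tumours 0.13, −0.19, 0.90, 1.41 and 0.30. The LPA2 tumours had 0.31, −0.17, 1.03, 0.87 and −0.70, and the LPA3 tumours 0.56, 1.04, 1.28, 0.15 and 2.03. ATX tumours lay close together except ATX 5, the highest of the 20, and the 4 lowest, in LPA1 and LPA2, were all on slides 5 and 6. Beside the transgene, slides 5 and 6 minus slides 1 to 4 was −1.14 (SE 0.272, adjusted p = 0.0116). ATX minus LPA2 was 0.93 (adjusted p = 0.364) and 0.24 with the slide set. LPA3 minus LPA2 was 0.74 (SE 0.412, adjusted p = 0.581) and 0.29 with the slide set.

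Itga3 ratios were 0.59, 0.74, 0.63, 0.70 and 0.91 in ATX and 0.02, −1.11, 0.18, 1.05 and 0.01 in LPA1. They were 0.29, 0.20, 0.98, 0.34 and 1.04 in LPA2 and 0.40, −0.26, 0.88, 0.71 and 1.57 in LPA3. The ATX tumours lay within the range of each receptor transgene, and LPA1 2 was the lowest of all. ATX minus LPA1 was 0.68 (SE 0.344, adjusted p = 0.56) and 0.04 on slides 1 to 4 alone. Itga7, the muscle laminin receptor chain, had −0.48, −1.19, −0.36, −0.88 and −0.54 in ATX and −0.06, −0.20, −0.96, −0.54 and −0.25 in LPA1. LPA2 tumours had −0.42, −0.50, −0.22, −0.13 and −0.51, and LPA3 tumours −0.35, −0.84, −0.28, −0.28 and −0.33. ATX 2 and ATX 4 were among the 4 lowest, and the other 3 ATX tumours lay within the ranges of LPA1 and LPA3. ATX minus the receptors was −0.30 (SE 0.171, adjusted p = 0.482). For Itga6 this difference was 0.37 (adjusted p = 0.597) and for Itgb1 0.01 (adjusted p = 0.992).

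Itga11, the collagen receptor chain of fibroblasts (chr9:62677855-62783979), had its highest mean in LPA1. ATX tumours had −2.24, −2.18, −2.52, −1.41 and 0.47 and LPA1 tumours −0.95, −0.34, −0.76, 1.08 and −0.26. In LPA2 it had −2.29, −2.25, −2.34, −0.20 and −0.52, and in LPA3 −1.96, −1.12, −0.94, −0.30 and −2.33. ATX 1 to 4 were below all LPA1 tumours, and ATX 5 was above 4 of them. Of the LPA2 tumours 3 lay between −2.34 and −2.25 and the others within the range of LPA1. ATX minus LPA1 was −1.33 (SE 0.586, adjusted p = 0.525) and LPA2 minus LPA1 −1.27 (adjusted p = 0.999). The list of 7 fibroblast markers lay below 0 in all 20 tumours, with 0 of 7 above 0 in over 10. It too had its highest mean, with lowest and highest tumour, in LPA1 (−1, −2.778 to −0.032), then LPA2 (−1.37, −2.256 to −0.771), ATX (−1.748, −2.253 to −0.652) and LPA3 (−2.273, −3.306 to −0.44). Its part in Itga11 was not tested. Itga1 and Itga2 differed between ATX and the receptors by −0.05 and −0.09 (adjusted p = 0.967 and 0.963).

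Of the RGD receptor chains, Itga8 (chr2:12106632-12301985), an alpha chain of contractile and mesenchymal cells, was lowest in LPA3. ATX tumours had 0.42, 1.47, 1.50, 1.24 and 0.11 and LPA1 tumours 0.67, 1.48, 2.37, 0.14 and 0.93. LPA2 tumours had 1.06, 0.76, 0.51, 1.36 and 0.03, and LPA3 tumours 0.31, −0.43, 0.72, −1.21 and −0.46. LPA3 2, 4 and 5 were the only tumours of the 20 below 0, and LPA3 1 and 3 lay within the other transgenes. LPA3 minus LPA1 was −1.33 (SE 0.424, adjusted p = 0.402). Including the slide set gave −1.52, at an adjusted p of 0.5, and slides 1 to 4 alone gave −1.18, at 0.605. Slides 5 and 6 held a single LPA3 tumour, LPA3 4.

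Itgb6 (chr2:60598292-60722603), the epithelial beta chain that pairs with Itgav, was below 0 in all LPA3 tumours as the mean of its 3 features. The features did not share this: they averaged 0.34, −1.40 and −0.51 in LPA3. The first had 0.40 in ATX, 0.39 in LPA1 and 0.41 in LPA2. Ratios were −0.01, 0.53, −0.04, 0.14 and 1.24 in ATX and 0.48, 0.37, 1.00, −1.37 and 0.02 in LPA1. They were 0.15, −0.10, 1.57, 0.42 and 0.33 in LPA2 and −0.17, −0.27, −0.38, −0.89 and −0.91 in LPA3. All LPA3 tumours lay below all ATX tumours, as in 2.29% of all genes with either direction counted, and below all LPA2 tumours (1.67%), while LPA1 4 was the lowest of the 20. LPA3 minus LPA2 was −0.998 (SE 0.389, adjusted p = 0.52), −1.10 with the slide set and −1.43 on slides 1 to 4. The adjusted p across transgenes was 0.491.

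Itgb8, the other beta partner of Itgav named here in full, had −0.50, 1.06, 0.13, 0.29 and −0.36 in ATX and 0.76, 0.36, 1.06, −0.19 and 0.00 in LPA1. LPA2 tumours had 0.15, 0.38, 0.06, 0.13 and 0.18, and LPA3 tumours −0.65, −0.72, 0.56, −0.87 and −0.07. Of the LPA3 tumours 3 were lower than every other tumour, and LPA3 3 was the 4th highest of the 20. LPA3 minus LPA1 was −0.75 (SE 0.318, adjusted p = 0.513). Itga2b, the platelet alpha chain, had −0.53, −0.33, −0.41, −0.38 and −0.57 in ATX and 0.00, 0.15, −1.43, 0.25 and −0.14 in LPA1. Its ratios were 0.00, 0.07, 1.16, −0.05 and −0.07 in LPA2 and 0.00, −0.54, 0.26, −0.05 and 0.28 in LPA3. All ATX tumours were below all LPA2 tumours, as in 3.3% of all genes, and 3 of its 21 array values were exactly 0. ATX minus LPA2 was −0.66 (SE 0.297, adjusted p = 0.364), and the 4 platelet markers measured had a list mean and range of −1.945, −2.92 to 0.08 in ATX, −1.795, −3.1 to −1.156 in LPA1, −1.413, −2.135 to −0.836 in LPA2 and −2.124, −2.753 to −1.095 in LPA3, the lowest, where Itga2b averaged −0.01. Their part in Itga2b was not tested. Itga5, Itgav, Itgb3 and Itgb5 differed between ATX and the receptors by −0.36, 0.08, 0.42 and 0.36 (adjusted p = 0.581 to 0.921).

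Itga9, whose ligands include tenascin, had −0.34, −0.60, 0.45, −0.43 and −0.68 in ATX and −0.32, −0.44, −1.39, −0.16 and −0.20 in LPA1. LPA2 tumours had −0.90, −0.38, −0.87, 0.19 and 0.02, and LPA3 tumours 0.51, −0.90, 0.78, 0.05 and −0.08. Its groups overlapped throughout, with LPA1 3 lowest and LPA3 3 highest. LPA3 minus LPA1 was 0.57 (SE 0.333, adjusted p = 0.608). For Itga4 ATX minus the receptors was −0.24 (adjusted p = 0.71).

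Among the leukocyte chains, Itgae (chr11:73090505-73147449) had its highest mean in ATX. ATX tumours had 1.31, 2.29, 0.77, 1.51 and 0.56 and LPA1 tumours 0.23, 0.41, 0.47, 1.77 and 0.84. LPA2 tumours had 0.78, −0.07, −0.08, 0.14 and 0.44, and LPA3 tumours 0.25, 0.01, 0.29, 0.47 and 0.92. ATX 1, 2 and 4 were above all LPA2 and LPA3 tumours, ATX 3 and 5 lay within them, and LPA1 4 was the second highest of the 20. ATX was higher than the receptors by 0.83 (SE 0.268, adjusted p = 0.228) and than LPA2 by 1.05 (adjusted p = 0.24). Including the slide set gave 0.75 for the first, at an adjusted p of 0.509, and slides 1 to 4 alone 0.73, at 0.792. Of the T and NK cell markers 5 of 7 were above 0 in over 10 tumours. Their list mean and range was 0.558, −0.272 to 1.431 in LPA1, 0.479, 0.05 to 1.172 in ATX, 0.363, −0.059 to 0.678 in LPA2 and 0.017, −0.46 to 0.446 in LPA3, and that of 5 dendritic cell markers (3 of 5 above 0 in over 10 tumours) was largest in ATX (0.486, 0.151 to 0.76), then LPA1 (0.377, −0.058 to 1.246), LPA2 (0.175, −0.586 to 0.69) and LPA3 (0.078, −0.204 to 0.794). The part of either list in Itgae was not tested.

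Itgam ratios were −0.51, 0.03, 0.24, −0.06 and 2.23 in ATX and 0.38, 0.43, 0.97, 1.98 and 1.44 in LPA1. They were −0.07, −0.08, 0.68, 1.42 and 0.51 in LPA2 and 0.54, 0.89, 1.74, 0.29 and 1.53 in LPA3. ATX 5 was the highest of the 20 tumours and the other 4 ATX tumours were among the 6 lowest. ATX minus the receptors was −0.46 (SE 0.379, adjusted p = 0.652), and −0.88 with the slide set. Itgb2 had 0.86, 0.73, 0.34, 0.84 and 1.96 in ATX and 0.98, 0.88, 2.41 and 1.54 in LPA1 mice 1, 3, 4 and 5. LPA2 tumours had 1.25, 0.67, 0.64, 1.51 and 1.06, and LPA3 tumours 0.97, 1.22, 1.06, 0.93 and 1.48. LPA1 4 and ATX 5 were the 2 highest, as they were for Itgam, and the remaining tumours overlapped. ATX minus LPA1 was −0.51 (SE 0.333, adjusted p = 0.652, with LPA1 2 missing). Itgal, Itgax and Itgb7 differed between ATX and the receptors by 0.00, 0.22 and 0.48 (adjusted p = 0.996, 0.721 and 0.796).

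Partner chains were then compared across tumours, separately on slides 1 to 4 (13 tumours, LPA1 4 by its repeat array) and on slides 5 and 6 (7 tumours). There were 22 measured pairs. On slides 1 to 4 the ratios of 11 pairs were correlated at an adjusted p under 0.05 (permutation test, 2-sided, adjusted over the 22 pairs), all 11 positively, and 19 of 22 had r above 0. On slides 5 and 6 only 1 pair passed in the exact permutation test, and 14 of 22 had r above 0. Pooled over all 20 tumours 14 passed, 13 after subtracting the transgene means, and 10 with each array scaled to the same spread, where 18 in place of 21 had r above 0. The share of all gene pairs that would pass was not computed, so these counts have no background beside them. For passing pairs on slides 1 to 4, some genes had a higher r with the first chain than its partner did. Their share of 18934 genes ran from 0.169% (Lamb1 and Lamc1) to 4.73% (Itga5 and Itgb1). Pairs with Itgb2, which lacks a value, were not ranked.

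Lamb1 and Lamc1, the beta and gamma chains of the common laminins, had the highest r on slides 1 to 4, 0.854 (rho 0.819, adjusted p = 0.00066 and 0.0113, permutation test, n = 13). Only 0.169% of 18934 genes had a higher r with Lamb1 than Lamc1 did, while the median gene had −0.056. Without the 2 tumours farthest from the median of Lamb1 r was 0.789 on slides 1 to 4. On slides 5 and 6 r was 0.696 (rho 0.321, adjusted p = 0.374 in the exact permutation test, n = 7). Without the 2 farthest tumours it was 0.260 there, so the value on slides 5 and 6 rests on them. Both genes were lowest in LPA2 3 and LPA1 3 (−2.68 and −2.17 for Lamb1, −2.38 and −2.05 for Lamc1). Lamc1 also followed the vascular chain Lama4 on slides 1 to 4 (r = 0.770, rho 0.769, adjusted p = 0.0148 by permutation), with r = −0.472 on slides 5 and 6. The r of Lamc1 on slides 1 to 4 was 0.572 with Lama5, 0.557 with Lamb2 and 0.556 with Lama1, none of which passed. On slides 5 and 6 these were 0.698 (rho 0.929), 0.146 and −0.636, and none passed there either. Lama3 and Lamb3 had r = 0.639 (rho 0.549, adjusted p = 0.0418 by permutation) and 0.433 without the 2 farthest tumours, so this relation rests on them. Lama2 and Lamb1 gave the only pair that passed on slides 5 and 6, in the negative direction (r = −0.929, rho −0.964, adjusted p = 0.0131, exact permutation test, n = 7), against r = 0.195 on slides 1 to 4.

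For the integrins, Itgam and Itgb2, which form the myeloid receptor for complement and ICAM, had r = 0.795 on slides 1 to 4 (rho 0.802, adjusted p = 0.00825 by permutation, n = 13) and 0.739 on slides 5 and 6. Without the 2 tumours farthest from the median of Itgam these were 0.803 and −0.731, so the value on slides 5 and 6, over 6 tumours with both genes, rests on those left out. Itgav and Itgb3, a receptor of vitronectin, had r = 0.725 (rho 0.703, adjusted p = 0.0195) and 0.864 in the same order, by permutation, and Itgav and Itgb5 0.680 (rho 0.808, adjusted p = 0.0335) and 0.677. Without the 2 tumours farthest from the median of Itgav the pair with Itgb3 had 0.754 and 0.599, and that with Itgb5 0.785 and 0.204. Itgav did not pass with its other partners Itgb6 (r = −0.079) and Itgb8 (r = 0.187) on slides 1 to 4. Itga2 and Itgb1, a collagen receptor, had r = 0.817 (adjusted p = 0.00887 by permutation) on slides 1 to 4 and 0.137 on slides 5 and 6. Itga5 and Itgb1 had 0.636 on slides 1 to 4 and −0.545 on slides 5 and 6, where 3 of the 7 Itga5 values were exactly 0. Itgal and Itgb2, Itgax and Itgb2, and Itga4 and Itgb7 had r = 0.680, 0.671 and 0.699 on slides 1 to 4. Without the 2 farthest tumours these were −0.364, 0.280 and 0.353, so they rest on those tumours.

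Itga6 and Itgb4, the pair of the hemidesmosome, did not pass in either slide set (r = −0.228 on slides 1 to 4 and 0.095 on slides 5 and 6). On slides 1 to 4, 72.9% of genes had a higher r with Itga6 than Itgb4 did. Itga3 and Itgb1 (0.335 and 0.080), Itgae and Itgb7 (0.520 and 0.589), Itga2b and Itgb3 (0.233 and −0.541) and the muscle receptor Itga7 with its ligand chain Lama2 (−0.042 and 0.008) did not pass either.

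**Figure D4:**
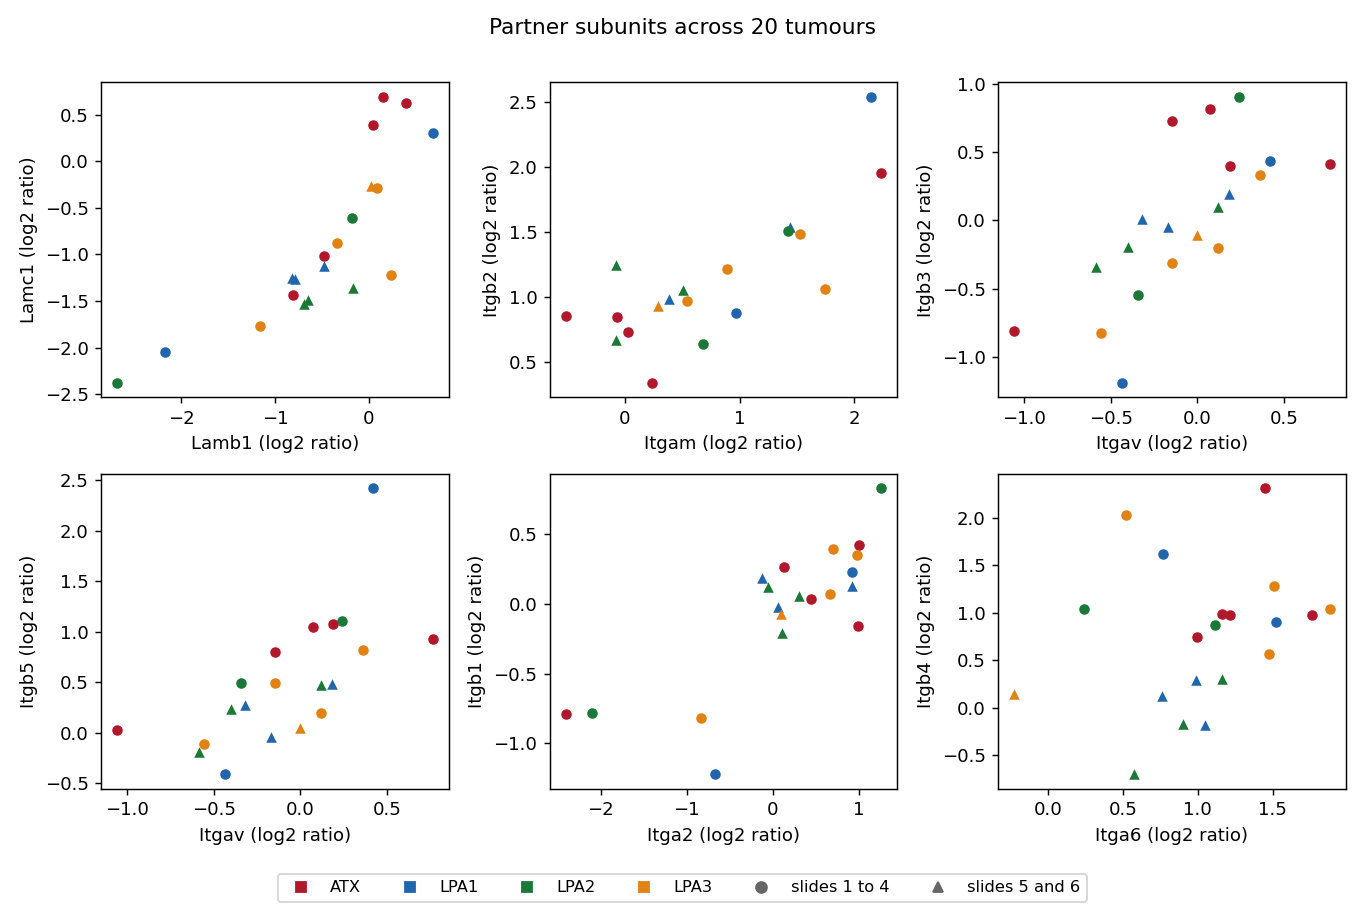
Log2 ratios of 6 partner pairs, the first chain on the horizontal and the second on the vertical axis, with 1 point for each tumour coloured by transgene, circles for slides 1 to 4 and triangles for slides 5 and 6 (LPA1 4 by its repeat array). The points of Lamb1 and Lamc1 run along a line from LPA2 3 and LPA1 3 at the lower left (r = 0.854 among the circles), and those of Itga6 and Itgb4 do not (r = −0.228).

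Genes that work with these receptors were read from lists of basement membrane and hemidesmosome partners (24 of 26 tested), adhesion adaptors and kinases (25 of 27) and integrin ligands other than laminin (24 of 27). Across the 4 transgenes the F test called 0 of each list, against 0.0315% of all genes, with 2, 0 and 5 genes at an unadjusted p under 0.05 (10.9% of all genes). In ATX against the receptors 0 were called as well, with 5, 3 and 9 at an unadjusted p under 0.05 (12.7% of all genes), and the median differences were 0.254, 0.006 and −0.155. The only gene called in any of the comparisons was Icam1, the endothelial and epithelial ligand of the Itgb2 integrins, in ATX against LPA3 (0.0996% of all genes). Its mean was 0.85 ± 0.359 in ATX and −0.92 ± 0.388 in LPA3, with LPA1 at 0.35 ± 0.768 and LPA2 at 0.31 ± 0.514 (SD, n = 5 each). The difference of 1.77 (SE 0.333) had an adjusted p of 0.04, of 0.00707 with the slide set and of 0.152 on slides 1 to 4, where it was 1.91. Leaving out 1 tumour gave 1.63 to 1.91 with adjusted p-values of 0.00966 to 0.162, and Icam1 was called in 7 of these 20 fits and in 16 of all 35 alternatives.

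Col17a1, the transmembrane collagen of hemidesmosomes that binds laminin, had a mean of 1.11 ± 1.12 in ATX and lower ones in LPA2 (−0.63 ± 0.763), LPA1 (−0.76 ± 1.54) and LPA3 (−2.04 ± 0.974). ATX exceeded the receptors by 2.26 (SE 0.546, adjusted p = 0.131), and by 3.16 with the slide set, where it was called (SE 0.435, adjusted p = 0.00741, against 0.142% of all genes). On slides 1 to 4 alone it was 3.15 (adjusted p = 0.11), and Col17a1 was called in 5 of 35 alternatives. Of the other listed genes of smallest p, Col7a1, the anchoring fibril collagen, had a difference of 1.75 (SE 0.581, adjusted p = 0.236), Col15a1 0.68 (adjusted p = 0.341) and Npnt, a ligand of Itga8, −0.50 (adjusted p = 0.685). The ligands Vwf, Tnc and Mfge8 had 1.02, −1.22 and 1.14 (adjusted p = 0.182, 0.174 and 0.296). Among the adaptors Itgb1bp2, a muscle gene, had −1.74, Parvb −1.07, Tns1 −0.32 and Lims2 −0.31 (adjusted p = 0.266 to 0.842).

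Single array features limit how far these gene means can be read. Of 22 members with more than 1 feature, 9 had a pair of features with a correlation below 0 across the 20 tumours, and 4 had every pair at 0.5 or above. The 2 features of Lama3 (r = 0.235) had differences of ATX from the receptors of 1.02 (SE 0.278, adjusted p = 0.183) and 0.42 (SE 0.201, adjusted p = 0.421). Both features of Itgae were higher in ATX, by 0.67 and 0.99. The 3 features of Itgb4 gave 0.19, 0.19 and 1.42, and the third stood apart from a pair that agreed at r = 0.958. Itga1 had 1 feature at −1.06 and 3 between 0.13 and 0.40, and the 2 features of Itgax were correlated at −0.171. The 12 features of Itgb1 and of Lama2 had median correlations of 0.934 and 0.901. Fitted singly over 45177 features, 0 of the 97 member features were called in any comparison by limma, where 0% to 0.0996% of all features were, and 4 to 15 were at an unadjusted p under 0.05. With the slide set 0 were called as well, against 0% to 0.405% of all features.

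**Figure D5:**
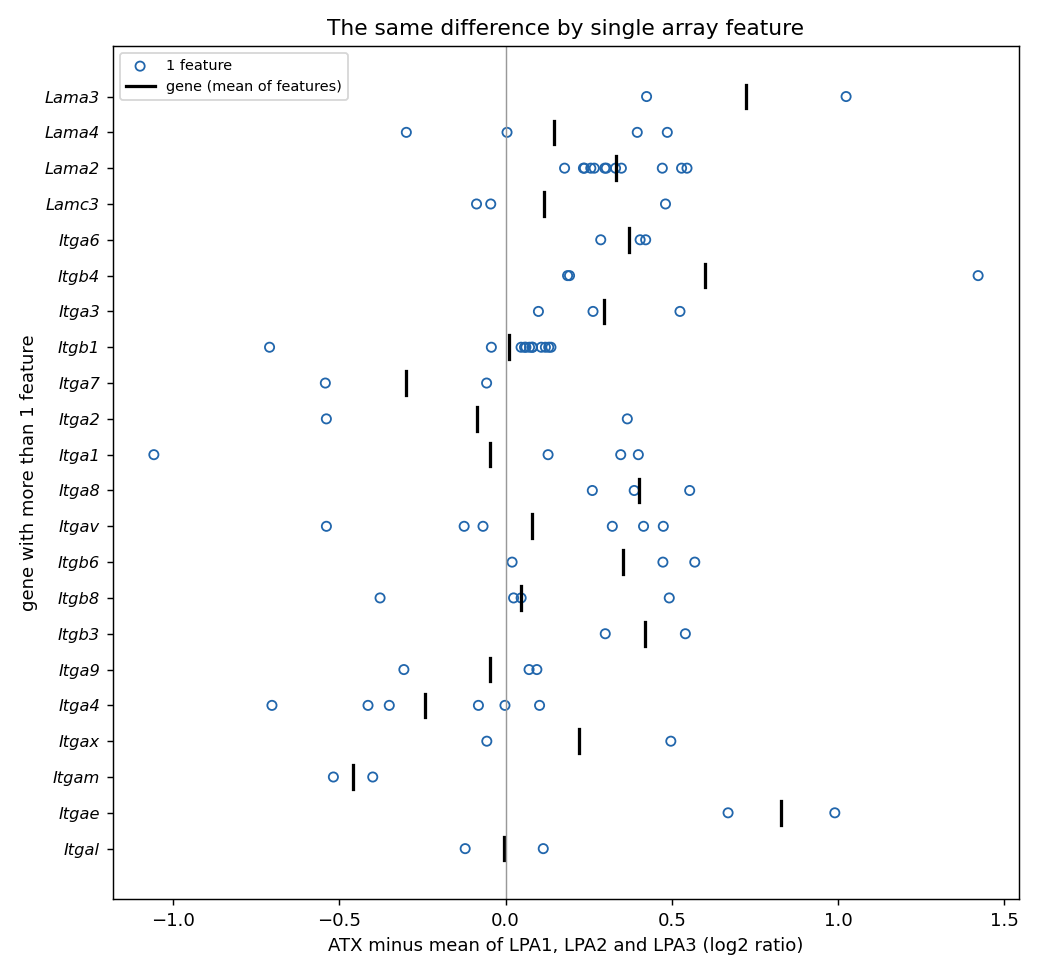
Difference of ATX tumours from the mean of the receptor transgenes in log2 ratio (horizontal axis) for each array feature (circles) and for the gene mean (bars) of the 22 members with more than 1 feature (vertical axis). Lama3 and Itgae lie right of 0 in both of their features, while Itga1, Itgav and Itgb8 have features on both sides.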

How the data were processed

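Agilent 2-colour arrays of 20 mammary tumours were used, with RNA from a Qiagen RNeasy kit per the labels' protocols. The deposited values are log2 ratios made by the authors, 1 for each of 45220 features and 21 arrays. Scanner processing, background correction, normalization and log base are not given in the sources used here, and base 2 was taken from the range (−11.437 to 9.86). Ratios were read as tumour over reference because the labels give Cy5 for tumours. Every array had a median of 0. Without signals over background in it, no dim probe could be removed, and the number of arrays limits the precision. Of the features 33653 had 1 gene symbol in the platform annotation, 56 several and 11511 none, and 33517 were matched to the reference table (GRCm38.p6, whose build names the coordinates) by gene number. Features were averaged per gene and the 2 arrays of LPA1 4 per tumour.

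Genes with a value in at least 4 tumours of each transgene (19069) were fitted with limma 3.58.1 (lmFit, eBayes) in R 4.3.3, all 20 tumours in 1 fit without a covariate, with a call wherever the Benjamini-Hochberg adjusted p was below 0.05. Adjusted p-values of genes come from this fit unless named otherwise, and measure the spread between mice, which are separate animals per the labels. Pair correlations were tested by permutation (100000 resamples, exact for 7 tumours) in Python 3.11.15 (pandas 2.3.3, numpy 2.4.6, scipy 1.17.1), and figures drawn with matplotlib 3.10.9. The fit was tested on simulated data. Named in full were the 6 members of smallest F-test p and, for each comparison, the 3 of smallest p in each direction; of the lists, called genes and the 4 of smallest F-test p. The members, lists, pairs, motifs and promoters shown were chosen with earlier results of these data known. Mouse numbers of different transgenes did not pair the tumours: over 30 same-numbered pairs the deviations from the transgene means correlated at −0.355 to 0.318. Alternatives were scaled and quantile-normalized arrays, slide terms, slide sets alone, the median of probes, exact zeros as missing, array weights, 1 array of LPA1 4, complete genes, trend and robust moderation, the mouse number as a block, and each tumour left out. The fit of single features and that of scaled arrays with the slide set were chosen after seeing the data.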

Additional observations from a re-analysis of the deposited data

Results flagged for a closer look

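A single tumour stood apart from the other 4 of its transgene, with a gap above Dixon's 95% critical value for 5 samples, in 20 of 136 gene and transgene groups. The 5% that this value flags by chance assumes equal spread and independent groups. The receptor groups mix slides of unlike spread, and the genes of a tumour share its array. The count of 20 therefore has no chance rate to be set against. Of the 20, LPA1 3 and ATX 5 account for 5 each, ATX 1 and LPA2 3 for 3 each, LPA3 3 for 2, and LPA2 4 and LPA3 2 for 1 each. LPA1 3 was low for Itga2b (−1.43), Itga9 (−1.39), Itgb1 (−1.22), Lama3 (−0.22) and Lamb3 (−0.06, against 1.58 to 1.90 in the other LPA1 tumours). ATX 5 was high for Itga5 (0.88), Itgal (1.47), Itgam (2.23) and Itgb4 (2.31), and low for Lama1 (−0.14, against 1.96 to 2.62). ATX 1 was low for Itga2 (−2.40), Itgb3 (−0.81) and Itgb5 (0.02). LPA2 3 was high for Itga2b (1.16) and low for Itga5 (−1.09) and Lamb1 (−2.68). LPA3 3 was high for Itga1 (1.14) and Lamc3 (0.51), LPA3 2 low for Itga7 (−0.84), and LPA2 4 high for Lama5 (1.52). All 7 of these tumours were on slides 1 to 4. By limma's array weights LPA1 3 (0.344), LPA2 3 (0.397), LPA3 2 (0.499) and ATX 1 (0.504) had the 4 lowest weights of the 20 tumours.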

How the results depend on the processing

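The call of 0 members in each of the 8 comparisons was the same under each alternative run, except with array weights and without ATX 1. With array weights the members called numbered 5 across the 4 transgenes (17.6% of all genes), 4 for ATX against the receptors (13.2%), 2 for ATX against LPA1 (9.04%), 5 against LPA2 (13.4%) and 1 against LPA3 (5.4%). They numbered 0 for LPA2 against LPA1, 1 for LPA3 against LPA1 (4.34%) and 1 for LPA3 against LPA2 (5.61%). The weights ran from 0.344 to 1.96 on slides 1 to 4 and from 0.643 to 2.38 on slides 5 and 6, where the arrays had the smaller SD. The cause was not tested. Across transgenes the weighted fit called Lama3, Lamc1, Lama2, Itgae and Lama5. Leaving out 1 tumour at a time gave 0 to 1 member for ATX against the receptors, Lama3 without ATX 1, and 0 in the other comparisons. With the mouse number as a block limma called 0 members in every comparison, and 4 of 20 tumours correlated best with a tumour of their own number. Of the partner pairs, 11 passed on slides 1 to 4, 5 without the 2 farthest tumours (fewer samples) and 1 on slides 5 and 6 (7 tumours). Of 3652 values of single genes under the alternatives 3571 kept direction and side of the threshold, 18 came to pass, 17 of them with array weights, and 63 that were called in neither setting changed sign. No member was called without an alternative, so none could lose a call, but Icam1, called in ATX against LPA3, kept its call in 16 of 35 alternatives.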
